A study of Mus musculus with 12 samples.

Results

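This account compares metaphase II (MII) oocytes with germinal vesicle (GV) oocytes of wild-type mice, gene by gene, in mRNA bound to polysomes. The members are the arrays titled as wild type at these stages, 6 of the 12 arrays of the series, with 3 at each stage. Each array measured 16579 genes, and all of them were compared. The question was which functional classes of mRNA were more or less abundant on polysomes at MII, beyond the genes with the most extreme changes.

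The MII group held oocytes taken 14 h after hCG, a hormone that stands in for the ovulatory surge. The GV group held oocytes taken at 0 h. Mice of both groups had received PMSG, which makes follicles grow, 48 h before hCG, and every sample carries a strain label that joins C57BL/6J with 129Sv. The other 6 arrays are oocytes of Areg -/- mice, which lack the EGF-family ligand amphiregulin, at the same stages and with the same hormones, again 3 arrays a stage. The labels call the 3 samples of a group independent sets. They state neither the animals nor the oocytes behind an array, so a p-value measures only the spread between these samples. One label field of each sample names total RNA where the source and protocol fields name polysome-bound mRNA, and the values are read here as the second.

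A GV oocyte is arrested in meiotic prophase and has stopped, or nearly stopped, transcription. After the hormone surge it resumes meiosis, divides and arrests again at metaphase II, and through this time its proteins are made from mRNA stored during growth. As background, stored mRNAs are switched on when their poly(A) tails are lengthened in the cytoplasm, a step steered by the CPEB proteins and DAZL. Others are switched off or destroyed when their tails are removed by the CCR4-NOT complex with its adaptor BTG4. Values of unfractionated RNA are not analysed here, so loading on ribosomes and the amount of a transcript in the oocyte cannot be told apart.

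Values are log2 intensities, so a difference of 1 between stages is a 2-fold difference. The deposited values had been scaled to a common level across arrays, so higher and lower mean relative to the other mRNAs measured. A change between stages in the total amount of mRNA on polysomes cannot be seen in them. Differences are MII minus GV and errors are standard errors (SE) from a limma model of all 12 arrays. A gene was said to rise or fall when its p-value, adjusted by Benjamini-Hochberg over all genes, was under 0.05. At this threshold 3574 genes (21.6%) changed, of which 1487 (8.97% of all genes) were higher and 2087 (12.6%) were lower at MII. Falls were larger than rises. The median change was -2.32 among genes that fell and 1.68 among genes that rose, and 191 genes fell at least 16-fold while 7 rose as much. The 3 MII values lay all above or all below the 3 GV values in 1470 of the genes that rose and 2042 of those that fell, where 21.4% and 17.8% of all genes had groups that did not overlap in these directions.

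The share that changed depended on brightness, the mean log2 intensity over the 12 arrays. From the dimmest to the brightest of 4 equal groups of genes, the quartiles, 1.66%, 3.57%, 8.57% and 22.1% rose, and 0.507%, 3.55%, 19.6% and 26.7% fell. A list of bright genes is therefore to be read against the brightest quartile as well as against all genes. Correlations between arrays across genes, which are not independent replicates, were 0.920 to 0.949 within MII, 0.950 to 0.976 within GV and 0.837 to 0.866 between the stages. The MII arrays were narrower in spread, with an interquartile range of 3.81 ± 0.32 against 4.37 ± 0.34 on the GV arrays (SD, n = 3 each). A control pair on the array, which compares the 3′ with the 5′ end of Gapdh, differed by 3.23 ± 0.48 at MII and by 1.999 ± 0.31 at GV (log2, SD, n = 3 each), and the part of these technical differences in the gene changes was not tested. With the interquartile range as a covariate 1624 genes rose and 1490 fell, and after a further quantile normalisation 1903 rose and 1791 fell. Genes that rose were thus 41.6% of those that changed in the deposited values, 52.2% with the covariate and 51.5% after the normalisation. The median change over all genes was 0.20 in the deposited values, -0.03 with the covariate and 0.10 after the normalisation.

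**Figure D1:**
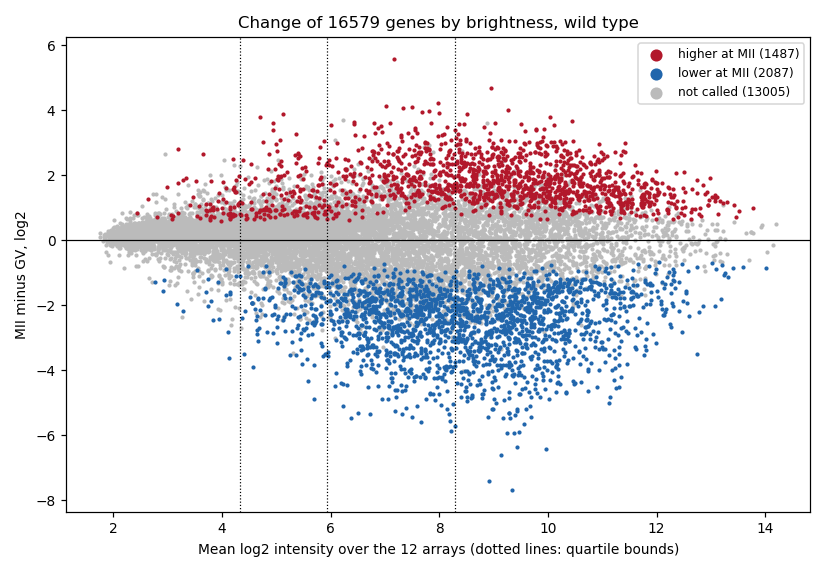
Each point is a gene, placed by its mean log2 intensity over the 12 arrays (x axis) and its MII minus GV difference in wild type (y axis, log2). Red points are the 1487 genes that rose, blue points the 2087 that fell, and grey points those that did not pass the test; the falls reach further from 0 than the rises, and few genes left of the first dotted quartile line changed.

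The arrays carried the oocyte's own mRNAs. All 15 measured oocyte markers, among them the zona pellucida genes Zp1, Zp2 and Zp3 and the growth factors Gdf9 and Bmp15, lay above the median of all genes at both stages, and their summed log2 level was 16.7 to 17.0 at MII and 17.2 to 17.4 at GV. Of 26 markers of cumulus and granulosa cells, the follicle cells that surround the oocyte, 23 lay below the median of all genes at MII and 21 at GV. The summed log2 level of that list was 12.815 to 13.030 at MII and 11.818 to 11.963 at GV. Most of this sum came from Serpine2, whose mean was 12.45 at MII and 11.26 at GV, and from Cyp19a1, the aromatase gene, with 10.59 at MII and 8.45 at GV. The granulosa genes Foxl2 (4.19 at MII and 4.50 at GV), Fshr (3.99 at MII and 4.34 at GV) and Lhcgr (2.29 at MII and 2.44 at GV) lay below the median of all genes at both stages. Inha (5.36 at MII and 6.79 at GV), Gja1 (4.94 at MII and 6.83 at GV) and Hsd17b1 (4.76 at MII and 7.60 at GV) lay above it at GV and below it at MII. Amhr2 (5.98 at MII and 5.73 at GV) lay above it at MII and below it at GV. Of this list of follicle cell markers Serpine2 and Cyp19a1 rose, by 1.19 ± 0.21 and 2.13 ± 0.38, and Hsd17b1, a steroid dehydrogenase, fell by 2.85 ± 0.58. Among 14 markers of blood, endothelial, theca and stromal cells, 12 lay below the median of all genes at each stage, and the summed log2 level was 10.8 to 11.7 at MII and 10.3 to 10.5 at GV. Of these Pecam1 rose by 1.59 (11.11 at MII and 9.52 at GV) and C1qb fell by 2.68 (5.42 at MII and 8.10 at GV). With the interquartile range of the arrays as a covariate 0 of the 14 rose. The part of other cells in the results below was not tested. In such bulk samples fewer cells of a type and less RNA per cell cannot be told apart.

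71 lists of genes, defined by symbol pattern or by known function, were used to describe classes, and 2937 measured genes stood in at least 1 of them. Apart from the cell type markers above, each list is described by how many members rose and fell and by its median change. Over all genes 8.97% rose and 12.6% fell and the median was 0.20, and in the brightest quartile 22.1% rose and 26.7% fell. A share near these is no difference of the list from other genes. The median change was lower among bright genes alone than over all genes, as given in the closing section. The median of a bright list is to be read with this too. With the interquartile range as a covariate or after further quantile normalisation the sign of the median turned in 17 of these 68 lists, whose medians lay between -0.33 and 0.39. For lists whose count moved by more than 1.5 times with this covariate, with array weights or after quantile normalisation, 1 such count stands beside the list in most cases. No list was tested as a whole. A count that moved by more than 1.5 times when 1 array was left out is given with that array, for counts of 4 or more. Genes named as examples below kept their call in all 15 alternative settings unless the text says otherwise. The complexes described by their subunit counts, and Eif3a, Eif3i, Eif4e, Eif4g1, Eif4enif1, Eif4e2, Eif2ak2, Eif2ak3, Cops2, Suz12, Ezh2, Eed, H1f8, Aurkb, Rec8, Smc1b, Cnot8, Pan3 and the printed ribosomal start windows, were picked after their values were seen.

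**Figure D2:**
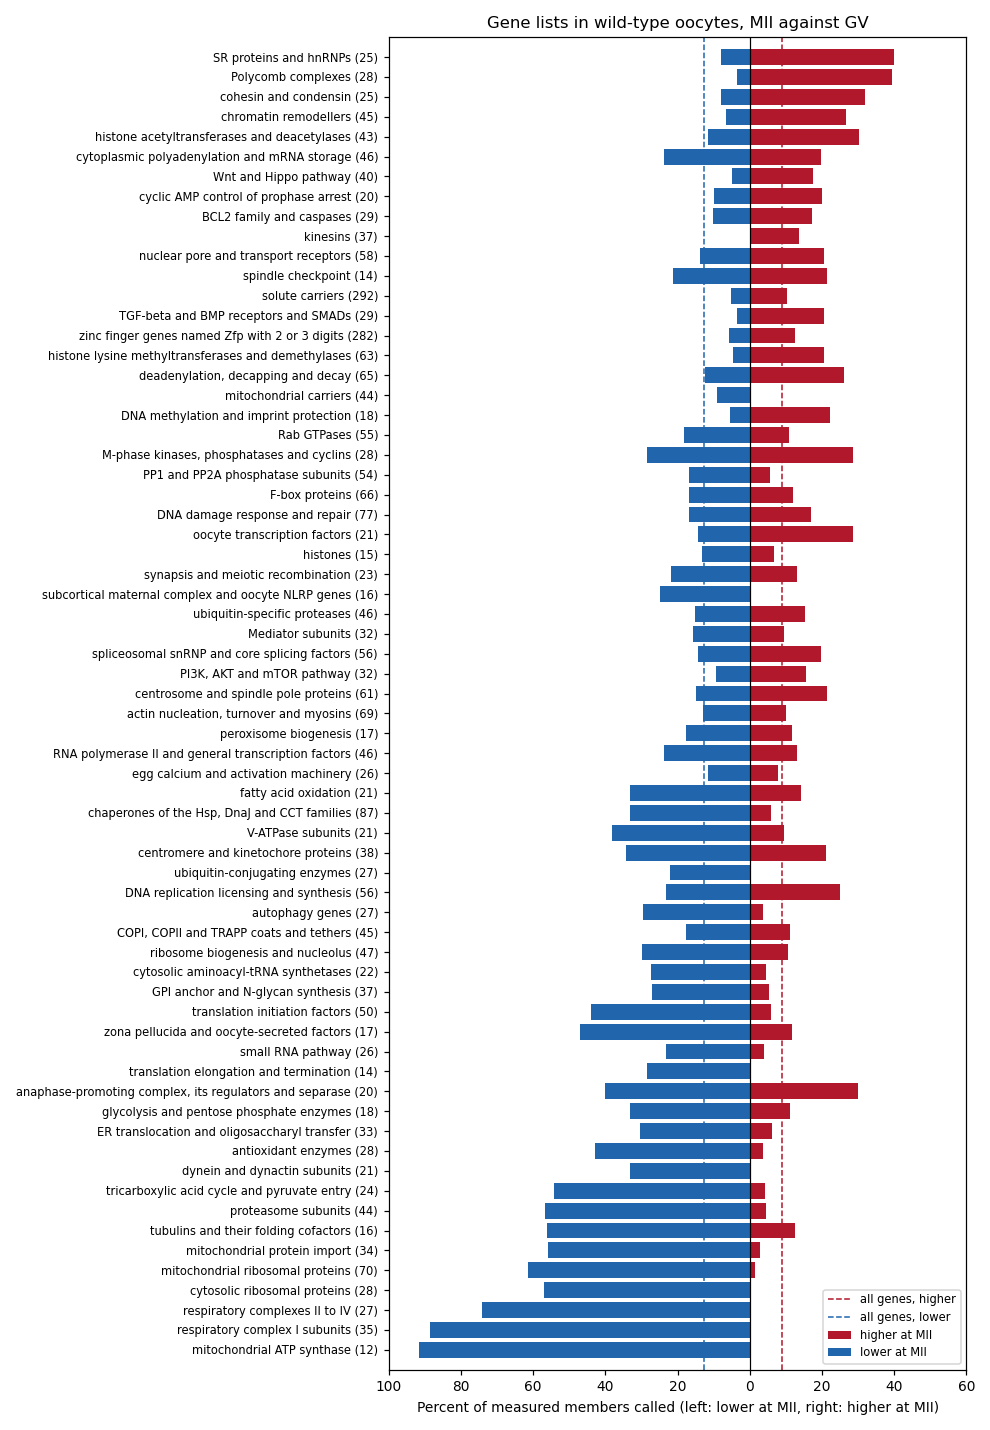
Bars give the percentage of measured members of each list drawn (number in brackets). Blue bars to the left show members lower at MII, and red bars to the right members higher at MII. Lists are ordered by their median change, and dashed lines mark the 12.6% and 8.97% of all genes. The chromosomal passenger complex with the shugoshins, the olfactory receptors and the cell marker lists were not drawn. Lists of ATP synthase, respiratory complex, ribosomal and proteasome genes stand at the bottom with 50% or more of their members lower, and lists of SR proteins and hnRNPs, Polycomb complexes and cohesin stand at the top with more members higher than lower.

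The machinery of oxidative phosphorylation was lower at MII almost throughout. In respiratory complex I, which passes electrons from NADH to ubiquinone, 31 of 35 measured genes fell and 0 rose, with a median change of -3.77, and all 35 differences were below 0. In complexes II to IV 20 of 27 fell and 0 rose (median -2.54). For the ATP synthase, which makes ATP from the proton gradient, 11 of 12 subunits fell (median -3.78). In the brightest quartile, where 26.7% of all genes fell, lay 29 genes of complex I, 20 of complexes II to IV and 12 of the ATP synthase. 

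Ndufs8, an iron-sulphur subunit of complex I, stood at 4.19, 5.96 and 5.03 at MII, against 10.02, 10.45 and 10.27 at GV. Ndufb8, an accessory subunit in its membrane arm, stood at 8.08, 8.90 and 7.66 at MII, against 12.43, 12.69 and 12.62 at GV. For both genes every MII array lay below every GV array, and the change was -5.18 ± 0.42 for Ndufs8 (adjusted p = 4.1e-05) and -4.37 ± 0.31 for Ndufb8 (adjusted p = 3e-05). Sdhb, the iron-sulphur subunit of complex II, had 7.19, 6.20 and 5.49 at MII, against 11.21, 11.65 and 10.57 at GV. Its groups did not overlap either, with a change of -4.85 ± 0.45 (adjusted p = 7.2e-05). Uqcrq of complex III changed by -5.36 ± 0.71, Cox7a2 of complex IV by -4.83 ± 0.72, and Uqcr11 of complex III by -5.46 ± 0.49. In the ATP synthase, Atp5o, which links the stalk to the catalytic head, had 8.80, 6.91 and 6.70 at MII, against 12.17, 12.12 and 12.09 at GV. It fell by 4.66 ± 0.49 (adjusted p = 0.00011), and the further subunits Atp5k, Atp5e and Atp5j changed by -4.998, -4.56 and -4.37.

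Genes that build mitochondria were mostly lower too. Mitochondrial ribosomal proteins had 43 falls and 1 rise among 70 genes (median -2.01). The exception was Mrpl3, a large-subunit protein, with 10.60, 9.16 and 10.28 at MII, against 7.74, 8.15 and 8.35 at GV, a rise of 1.93 ± 0.38 (adjusted p = 0.0039). Mrps18c of the small subunit had 6.64, 5.61 and 5.82 at MII, against 11.56, 11.24 and 11.54 at GV, so that every MII array lay below every GV array, and its change was -5.42 ± 0.37 (adjusted p = 3e-05). Mrpl11 and Mrpl28 changed by -5.20 and -4.81. Of 34 genes of protein import into mitochondria 19 fell and 1 rose (median -1.95). Within the inner-membrane translocase, Timm17b, a channel subunit, changed by -4.90 ± 0.89 and Timm44, which anchors the import motor, by -4.05 ± 0.61, while Timm21 of the same translocase rose by 3.39 ± 0.68. Timm21 had 10.55, 8.59 and 10.30 at MII, against 7.14, 6.82 and 5.30 at GV, with no overlap. Dnajc15, a co-chaperone of import, changed by -5.46 ± 0.39 (adjusted p = 3e-05). By contrast, the 44 mitochondrial carriers of the Slc25 family had a median change of 0.24, close to that of all genes, with 4 lower (2 without MII array 1 or MII array 2) and 0 higher, a median whose sign turned with the interquartile range as a covariate (-0.04). Slc25a1, the citrate carrier, and Slc25a3, the phosphate carrier, fell by 3.48 ± 0.35 and 1.42 ± 0.29.

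Fuel pathways upstream also had more falls than rises. In the tricarboxylic acid cycle and pyruvate entry 13 of 24 genes fell (median -1.32), although without GV array 2 the count was 6 and with the interquartile range as a covariate 8. Mdh2, Dlst and Sucla2, which act in the later part of the cycle, fell by 3.998, 3.30 and 3.04. Cs, citrate synthase, which opens the cycle, had 12.001, 12.03 and 12.47 at MII, against 11.14, 11.05 and 10.94 at GV. It was the single member of this list that rose, by 1.12 ± 0.23 (adjusted p = 0.0049). Among glycolytic and pentose phosphate enzymes 6 of 18 fell and 2 rose (median -0.80), and the glycolytic enzymes Tpi1 and Pkm changed by -4.16 ± 0.63 and -4.002 ± 0.62. In fatty acid oxidation 7 of 21 fell and 3 rose (median -0.23), with 3 falls without MII array 1. Acsl3 and Acsl4, which activate long-chain fatty acids, rose by 1.88 ± 0.24 and 1.34 ± 0.32, while Cpt2 and Acadvl, which act inside mitochondria, changed by -2.68 ± 0.45 and -2.37 ± 0.31. Of 28 antioxidant genes 12 fell and 1 rose (median -0.92). The mitochondrial peroxiredoxin Prdx3 changed by -4.69 ± 0.39 and the glutaredoxins Glrx2, Glrx3 and Glrx5 by -4.41, -4.29 and -4.01. Gclc, the catalytic subunit of the rate-limiting step of glutathione synthesis, had 8.28, 8.22 and 8.47 at MII, against 5.77, 6.18 and 4.95 at GV. It rose by 2.69 ± 0.50 (adjusted p = 0.0028) and was the single antioxidant gene that did. Peroxisome biogenesis had 3 falls and 2 rises among 17 genes (median -0.19).

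**Figure D3:**
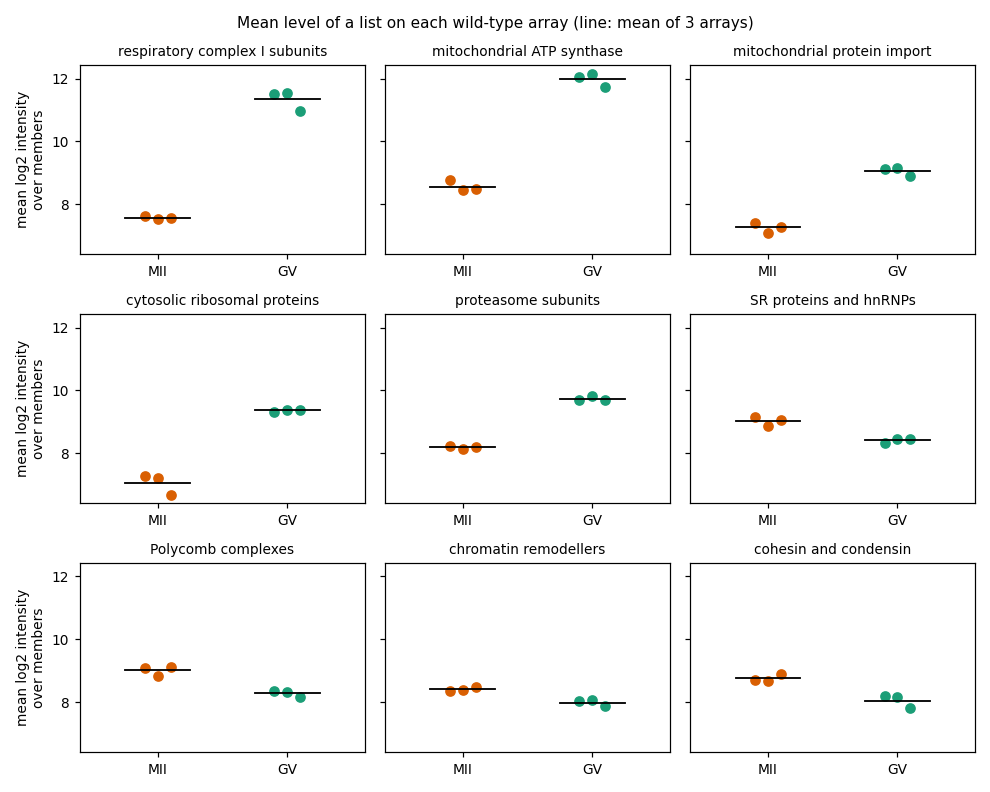
Each point is the mean log2 intensity over the members of a list on an array (y axis), at MII (orange, left) and GV (green, right), with a line at the mean of the 3 arrays. In the 5 lists of mitochondrial, ribosomal and proteasome genes every MII point lies below every GV point, and in the 4 lists of RNA-binding, chromatin and cohesin proteins every MII point lies above every GV point.

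Many measured components of the translation apparatus were also lower at MII, relative to the other mRNAs. The list names 86 cytosolic ribosomal protein genes, of which only 28 were measured, so most of the class is not covered. These 28 include paralogues such as Rpl3l, Rpl7l1 and Rps27l. Of the 28 genes 16 fell and 0 rose, with a median change of -2.42. The other 12 did not pass the test. The list mean was 7.29, 7.21 and 6.69 at MII, against 9.33, 9.38 and 9.38 at GV. Rps24, of the small subunit, had 9.63, 9.16 and 8.94 at MII, against 12.98, 13.12 and 13.38 at GV. Its arrays were low at MII and high at GV with no overlap, and it changed by -3.91 ± 0.24 (adjusted p = 3e-05). Rpl8, of the large subunit, changed by -5.47 ± 0.65 and Rpl39l, a germ-cell copy of Rpl39, by -5.19 ± 0.54, though near-identical copies can share probes.

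Messenger RNAs of ribosomal proteins classically begin with a pyrimidine tract (a TOP motif) through which growth signals control their translation. The genome table used here (RefSeq, GRCm38.p6) gave start windows for 23 of the 28 genes. The search was for a C within 5 bases of an annotated start, on the gene's strand, that was followed by at least 4 pyrimidines. Such a run, counted from the first such C in reach, was found in 12 of these genes (52.2%). It was found in 18.3% of all 32851 start windows and in 23.3% of measured genes with a window. Further pyrimidines can stand just before the counted run, as in Rpl14. The windows below run from 10 bases before to 20 bases from the annotated start, with the run in capitals, and are shown because genes with and without it fell and genes with it also did not pass the test.
Rps9, chr7:3704031-3704060, plus strand: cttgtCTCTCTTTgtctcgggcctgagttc
Rps6, chr4:86857348-86857377, minus strand: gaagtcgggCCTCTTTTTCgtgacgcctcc
Rplp2, chr7:141447641-141447670, plus strand: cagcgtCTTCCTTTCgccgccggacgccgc
Rpl14, chr9:120571507-120571536, plus strand: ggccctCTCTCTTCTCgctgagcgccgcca
Rpl15, chr14:18270967-18270996, minus strand: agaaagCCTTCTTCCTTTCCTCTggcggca
Rpl26, chr11:68901556-68901585, plus strand: ggcaacttacagaaccggaagtcgcgtgta
Rps9, Rps6, Rplp2 and Rpl14 fell, by 5.91, 3.82, 3.49 and 3.26, and hold the run. Rpl15 holds the longest run of these windows and had a change of 0.35 ± 0.31 (adjusted p = 0.45). In Rpl26, which fell by 6.43, the window holds no such run. Over the genes with a window, 7 of 12 genes that fell and 5 of 11 that did not pass the test hold the run. Among all genes the share was 23% of those that rose and 25.1% of those that fell. These matches describe letters near annotated starts, and the starts used in oocytes were not measured.

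Initiation factors mostly fell where they changed. Of 50 genes 22 fell and 3 rose (median -0.59). The eIF3 complex, the scaffold that loads the small ribosomal subunit, had 10 of 12 measured subunits lower and 0 higher, with Eif3k at 8.68, 6.89 and 8.16 at MII, against 12.68, 12.59 and 12.38 at GV. Its MII arrays were all below its GV arrays, with a change of -4.64 ± 0.42 (adjusted p = 6.7e-05), and Eif3h changed by -3.67 ± 0.53. The subunits that did not pass the test were Eif3a, with -0.44 ± 0.38, and Eif3i, with 0.10 ± 0.21. Eif2b4, a subunit of the exchange factor that recharges eIF2, changed by -4.51 ± 0.53. The 3 genes that rose were Eif4ebp2, Eif2ak4 and Eif2ak1. Eif4ebp2, which binds and holds the cap-binding protein eIF4E, had 9.87, 9.25 and 10.21 at MII, against 7.46, 7.02 and 8.06 at GV, and rose by 2.26 ± 0.37 (adjusted p = 0.0014). Eif2ak4 and Eif2ak1, kinases that inhibit eIF2, rose by 1.70 ± 0.26 and 1.17 ± 0.25. Eif4e itself had a change of 0.57 ± 0.40 and Eif4g1, its scaffold, of 0.76 ± 0.37, neither past the test. Other genes known to limit initiation did not rise. Eif4enif1, which carries eIF4E to storage granules, and Eif4e2, a cap-binding competitor of eIF4E, changed by -1.77 ± 0.21 and -1.90 ± 0.48. The call of Eif4e2 was lost with the 6 wild-type arrays alone, with the interquartile range as a covariate and without GV array 1, GV array 2 or MII array 3. The eIF2 kinases Eif2ak2 and Eif2ak3 had changes of 0.003 ± 0.22 and 0.95 ± 0.39 that did not pass the test.

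In other steps of protein synthesis the shares that fell were near the 26.7% of the brightest quartile, and above the 12.6% of all genes. They were 28.6% in elongation and termination, 27.3% in aminoacyl-tRNA synthetases and 29.8% in ribosome biogenesis. The brightest quartile held 7 of 14, 16 of 22 and 28 of 47 of these genes. In elongation and termination 4 of 14 genes (median -0.68) fell, including Eef1d and Eef1b2, exchange factors of the elongation factor eEF1A, with -3.29 ± 0.43 and -1.57 ± 0.36. In the list of cytosolic aminoacyl-tRNA synthetases 6 of 22 fell (median -0.55). This list also holds Aimp1, a scaffold protein of the synthetase complex and not a synthetase, which changed by -3.13. The synthetases Mars1, Qars and Sars changed by -3.03, -2.71 and -2.58. Tars, for threonine, rose by 2.02 ± 0.38. In ribosome biogenesis 14 of 47 genes fell and 5 rose (median -0.51), the falls numbering 8 with the interquartile range as a covariate and the rises 3 without GV array 3 or MII array 2. Imp3, of the small-subunit processome, fell by 4.41 ± 0.50, and Rrs1, an assembly factor of the large subunit, rose by 3.12 ± 0.59.

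Complexes of protein turnover were mostly lower. Of 44 proteasome genes 25 fell and 2 rose (median -1.43), and 1 of those that fell, by 2.89, was Psmc3ip, a recombination factor that the symbol pattern took in. All 6 ATPases that unfold substrates at the base of the cap fell, and 8 of 10 measured subunits of the constitutive core did. Psmc2, one of these ATPases, had 7.45, 5.002 and 7.49 at MII, against 11.21, 11.30 and 11.20 at GV, and the core protease subunit Psmb7 had 5.79, 8.62 and 6.10 at MII, against 11.40, 11.69 and 11.65 at GV. Every MII array of either gene lay below its GV arrays, with changes of -4.59 ± 0.61 and -4.74 ± 0.81 (adjusted p = 0.00042 and 0.0017). Psmg4, an assembly chaperone of the core, changed by -5.09 ± 0.53. Psme4, an alternative activator of the core, rose by 1.59 ± 0.28, and Psmd3, a scaffold of the cap, by 1.24 ± 0.23. In the COP9 signalosome, which removes NEDD8 from cullin ligases, 7 of 9 fell and 1 rose, the last being Cops2 with 0.89 ± 0.22, a call that was lost without GV array 2 and without MII array 3.

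Folding factors went the same way. In the CCT chaperonin, which folds actin and tubulin, 6 of 8 subunits fell, and in prefoldin, which hands it substrates, 5 of 6 fell. Cct3 had 9.26, 9.27 and 10.10 at MII, against 13.18, 13.31 and 12.997 at GV, without overlap between the stages, and changed by -3.62 ± 0.41 (adjusted p = 0.00018). Over the wider chaperone list 29 of 87 fell and 5 rose (median -0.23, and 8 rises with array weights), with 3 rises without GV array 1 or MII array 3. Dnajc9, a histone chaperone, changed by -3.99 ± 0.40, while Dnajc3, a co-chaperone of the endoplasmic reticulum (ER), rose by 1.31 ± 0.28 and Dnajb4 by 1.33 ± 0.21.

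Enzymes that attach and remove ubiquitin moved both ways. Of 27 ubiquitin-conjugating enzymes 6 fell and 0 rose (median -0.36), with 3 falls without GV array 1 or MII array 3. Ube2s, which extends chains for the anaphase-promoting complex, had 11.73, 11.61 and 12.32 at MII, against 13.97, 14.02 and 13.72 at GV, and fell by 2.02 ± 0.25 (adjusted p = 0.00029). F-box proteins, the substrate receptors of SCF ligases, had 8 rises and 11 falls among 66 (median 0.08, and 7 falls after quantile normalisation), and the rises numbered 4 without GV array 3, MII array 1 or MII array 3. Fbxo33 rose by 2.72 ± 0.37, and Fbxw13 and Fbxw21 changed by -3.43 ± 0.25 and -3.29 ± 0.31. Of 46 ubiquitin-specific proteases 7 rose and 7 fell (median 0.01, and 3 falls with the covariate), with 3 falls without GV array 1 or MII array 1. Usp28 had 12.43, 12.50 and 12.48 at MII, against 9.90, 9.75 and 8.89 at GV, and rose by 2.95 ± 0.27 (adjusted p = 6.8e-05), as did Usp45 by 2.44 ± 0.52 and Usp37 by 1.99 ± 0.22. Usp39, a spliceosome component, and Usp30, an enzyme of the mitochondrial surface, changed by -3.12 and -2.73.

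In the secretory pathway 10 (30.3%) of 33 genes of ER translocation and oligosaccharyl transfer fell and 2 rose (median -0.88). Of these genes 24 lay in the brightest quartile, where 26.7% of all genes fell, a share close to theirs, and with the interquartile range as a covariate 7 fell. The translocon-associated protein complex was split, since its subunit Ssr4 had 3.33, 7.29 and 2.94 at MII, against 10.35, 10.23 and 9.77 at GV, whereas Ssr3 had 12.58, 11.39 and 12.34 at MII, against 9.95, 9.96 and 10.03 at GV. The stages did not overlap for either gene, and the changes were -5.60 ± 1.07 and 2.13 ± 0.29 (adjusted p = 0.0034 and 0.00043). Stt3a, a catalytic subunit of the oligosaccharyltransferase, rose by 1.93 ± 0.24, and Krtcap2, an accessory subunit, changed by -3.56 ± 0.45. Coats and tethers of ER to Golgi transport had 5 rises and 8 falls among 45 (median -0.51), with 3 rises without GV array 1, GV array 3 or MII array 3 and 4 falls with the interquartile range as a covariate. Genes of GPI anchor and N-glycan synthesis had 10 falls and 2 rises among 37 (median -0.59, and 4 falls with the covariate), and 4 falls without GV array 2. The COPII cargo adaptors differed between paralogues. Sec24a rose by 2.52 ± 0.48 and Sec24c changed by -2.65 ± 0.55. In the COPI coat Copb1 rose by 1.75 ± 0.24 and Cope changed by -2.90 ± 0.50.

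Acidification and autophagy genes included some of the larger falls. Of 21 subunits of the vacuolar proton pump (V-ATPase) 8 fell and 2 rose, and the list median of -0.26 turned to 0.04 after further quantile normalisation. Atp6v1e1, a stalk subunit, had 9.34, 5.33 and 5.58 at MII, against 12.43, 12.49 and 12.26 at GV, with no overlap, and a change of -5.65 ± 0.86 (adjusted p = 0.00088). Atp6v1d changed by -3.80 ± 0.59. In autophagy 8 of 27 genes fell and 1 rose (median -0.42), and the lipid-transfer paralogues went opposite ways. Atg2b had 7.10, 8.03 and 7.12 at MII, against 5.98, 5.71 and 4.59 at GV, while Atg2a had 7.72, 5.16 and 5.36 at MII, against 9.76, 9.58 and 10.16 at GV. The change was 1.99 ± 0.39 for Atg2b and -3.75 ± 0.58 for Atg2a (adjusted p = 0.0042 and 0.001). Map1lc3a, which coats the autophagosome membrane, changed by -3.88 ± 0.55. Among 55 Rab GTPases 6 rose and 10 fell (median 0.19, and 4 falls with the covariate), the falls numbering 4 without GV array 1, with rises of 2.62 for Rab33b, 2.06 for Rab8b and 1.87 for Rab6a.

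Nuclear RNA-binding proteins were among the classes with more rises than falls. Of 25 SR proteins and hnRNPs, which bind nascent RNA and steer splicing, 10 (40%) rose and 2 fell (median 0.76), where 8.97% of all genes and 22.1% of the brightest quartile rose. The count of rises was 5 without GV array 2 and 6 with the interquartile range as a covariate. Hnrnpa2b1 had 11.54, 11.41 and 11.49 at MII, against 9.07, 8.59 and 8.10 at GV, all MII arrays above all GV arrays, and rose by 2.89 ± 0.30 (adjusted p = 0.00011). Hnrnpdl and Srsf11 rose by 2.07 ± 0.42 and 1.599 ± 0.37, and Hnrnpll changed by -1.74 ± 0.32. Core splicing factors had 11 rises and 8 falls among 56 (median -0.04, and 5 falls with the covariate), and the rises numbered 7 without GV array 1, GV array 2 or MII array 1. Sf3b1, which recognises the branch point, rose by 2.12 ± 0.28, and Lsm4, a small ring protein of the U6 particle, changed by -3.90 ± 0.37.

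Transcription machinery, little used by the oocyte at these stages, moved both ways. In RNA polymerase II and general factors 11 of 46 genes fell and 6 rose (median -0.20), with 6 falls when the interquartile range was a covariate. Of 8 measured subunits of the polymerase itself 6 fell and 0 rose. Polr2b, the second-largest subunit, had 7.71, 5.05 and 7.46 at MII, against 11.12, 11.47 and 11.17 at GV, without overlap, and changed by -4.51 ± 0.70 (adjusted p = 0.001). The TFIID subunits Taf2 and Taf4 rose by 3.08 ± 0.47 and 2.05 ± 0.42, and Gtf2e2 of TFIIE changed by -4.41 ± 0.60. Mediator had 3 rises and 5 falls among 32 (median 0.01, and 6 rises with the covariate), with Med13 rising by 2.50 ± 0.45 and Med28 changing by -2.75 ± 0.37. Nuclear pore proteins and transport receptors had 12 rises and 8 falls among 58 (median 0.33, and 5 falls with the covariate), and the falls numbered 3 without GV array 2. Xpo4, an exportin, had 9.79, 10.36 and 9.69 at MII, against 8.27, 6.998 and 4.14 at GV, and rose by 3.48 ± 0.82 (adjusted p = 0.011). Tnpo1, a transportin, rose by 1.94 ± 0.37, and Ran, the GTPase that gives transport its direction, changed by -1.40 ± 0.30.

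Several lists of chromatin regulators had more rises than falls, where 8.97% of all genes and 22.1% of the brightest quartile rose. Of 28 Polycomb genes 11 (39.3%) rose and 1 fell (median 0.73), and the rises numbered 7 without GV array 2, GV array 3 or MII array 1. Polycomb repressive complex 2 (PRC2) methylates histone H3 at lysine 27, and 8 of its 11 measured core and accessory genes rose and 0 fell. Its accessory subunit Phf19 had 7.47, 8.15 and 8.30 at MII, against 6.69, 5.19 and 5.29 at GV, and the core subunit Suz12 had 11.17, 9.88 and 10.79 at MII, against 8.71, 9.21 and 8.50 at GV. MII arrays were the higher ones for both, and the changes were 2.25 ± 0.52 and 1.80 ± 0.55 (adjusted p = 0.0099 and 0.038). The methyltransferase Ezh2 and the core subunit Eed rose by 0.80 ± 0.22 and 1.14 ± 0.22, and the calls for Suz12 and Ezh2 were lost in some settings, among them leaving out GV array 2, GV array 3, MII array 1 or MII array 3. In the other Polycomb complex, PRC1, Phc3, Cbx2 and Bmi1 rose by 2.76, 2.13 and 1.97.

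Chromatin remodellers had 12 rises (26.7%) and 3 falls among 45 genes (median 0.68), and 19 rises after further quantile normalisation. The brightest quartile held 27 of the 45, and 22.1% of all its genes rose, a share near theirs. Smarcad1, a remodeller that acts on heterochromatin, had 10.05, 10.04 and 10.46 at MII, against 7.63, 7.04 and 6.95 at GV, with the stages well apart, and rose by 2.98 ± 0.26 (adjusted p = 6e-05). Smarca5, the motor of the ISWI complexes, rose by 1.78 ± 0.27 and Baz2b by 2.09 ± 0.46. Histone acetyltransferases and deacetylases had 13 rises (30.2%) and 5 falls among 43 (median 0.52, and 8 falls with array weights), with 20 genes in the brightest quartile. The deacetylase Sirt1 rose by 2.85 ± 0.48 and the cohesin deacetylase Hdac8 by 2.47 ± 0.53, while the acetyltransferases Kat5 and Kat2a changed by -3.96 ± 0.54 and -3.04 ± 0.40. Ncoa2, a coactivator of nuclear receptors, had 10.77, 9.95 and 10.54 at MII, against 7.66, 7.71 and 6.95 at GV, a rise of 2.98 ± 0.29 (adjusted p = 8.2e-05). Lysine methyltransferases and demethylases had 13 rises (20.6%) and 3 falls among 63 (median 0.27), with 8 rises without MII array 1. The brightest quartile held 24 of them, and their share of rises was near its 22.1%. The demethylases Kdm3b, Kdm7a and Kdm6a rose by 2.65, 2.44 and 2.18.

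DNA methylation factors, histones and oocyte transcription factors moved both ways. Of 18 genes of DNA methylation and imprint protection 4 rose and 1 fell (median 0.23). Dnmt3b, a de novo methyltransferase, rose by 1.84 ± 0.28. Tet3, the enzyme that oxidises methylcytosine in the zygote, had 12.33, 13.10 and 13.03 at MII, against 10.56, 10.78 and 11.52 at GV, a rise of 1.86 ± 0.40 whose call was lost with the interquartile range as a covariate. Dnmt1, the maintenance methyltransferase, had a change of -0.67 ± 0.24 (adjusted p = 0.07), and Dppa3, which protects maternal methylation in the zygote, one of -0.43 ± 0.22 (adjusted p = 0.18). Of 70 histone genes in the list only 15 were measured, and of these 2 fell and 1 rose (median 0.04). The rise was that of H3f3b, which codes for the replacement histone H3.3. It had 12.36, 11.61 and 11.99 at MII, against 9.46, 9.66 and 9.02 at GV, and a change of 2.60 ± 0.27 (adjusted p = 0.00011). The oocyte linker histone H1f8, once called H1foo, had a change of 0.40 ± 0.20 (adjusted p = 0.18). Oocyte transcription factors had 6 rises and 3 falls among 21 (median 0.04). The falls were those of factors known for switching on oocyte genes during growth. Figla had 6.22, 6.08 and 5.84 at MII, against 10.97, 11.15 and 10.59 at GV, far apart between the stages, and changed by -4.85 ± 0.22 (adjusted p = 3.2e-06), and Nobox and Lhx8 changed by -3.02 ± 0.39 and -1.59 ± 0.26. Sohlh2, an earlier factor of the same program, rose by 2.67 ± 0.33. Genes named Zfp with a number of 2 or 3 digits, mostly zinc finger proteins, had 35 rises and 16 falls among 282 (median 0.27, and 10 falls with the covariate), and there were 22 rises without MII array 3 and 10 falls without GV array 2.

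Regulators of the meiotic divisions moved in both directions within single complexes. Of 28 kinases, phosphatases and cyclins of M phase 8 (28.6%) rose and 8 (28.6%) fell (median 0.19). There were 5 rises without GV array 2, GV array 3 or MII array 1 and 4 falls with the interquartile range as a covariate. The brightest quartile, where 22.1% of all genes rose and 26.7% fell, held 19 of the 28. Cdk1, the kinase that drives M phase, had 7.89, 7.58 and 8.83 at MII, against 13, 12.47 and 11.94 at GV. Its MII arrays all lay below its GV arrays, with a change of -4.37 ± 0.36 (adjusted p = 4.6e-05), while its partner Ccnb1 rose by 2.14 ± 0.26 and Ccnb2 had a change of -0.50 ± 0.40 that did not pass the test. Cdc25b, the phosphatase that switches CDK1 on at meiotic resumption, changed by -2.59 ± 0.45. Wee2, the oocyte kinase that inhibits CDK1, had 12.03, 12.13 and 11.77 at MII, against 10.31, 10.22 and 10.64 at GV, and rose by 1.59 ± 0.23 (adjusted p = 0.00061). Along the MOS-MAPK route, which holds the metaphase II arrest, Mos and Map2k1 rose by 1.35 ± 0.27 and 1.72 ± 0.37 and the downstream kinase Rps6ka1 changed by -2.99 ± 0.49. Plk4, which starts centriole duplication, rose by 1.62 ± 0.35, while Plk1 and the spindle factor Tpx2 had changes of -0.79 ± 0.49 and 0.60 ± 0.30 (adjusted p = 0.29 and 0.18).

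The anaphase-promoting complex (APC/C), the ligase that ends metaphase, had 8 of 14 core subunits lower and 3 higher. With its regulators the list had 6 rises and 8 falls among 20 genes (median -0.73, and 5 falls with the covariate), and 3 rises without GV array 1 and 5 falls without GV array 1 or GV array 2. Anapc7 had 4.70, 5.27 and 4.999 at MII, against 10.22, 10.89 and 10.53 at GV, without overlap, and changed by -5.55 ± 0.37 (adjusted p = 3e-05). Anapc13, Anapc15 and Anapc5 changed by -4.05, -2.86 and -2.67. Anapc10, which helps bind substrates, had 10.98, 9.93 and 10.38 at MII, against 8.50, 7.46 and 7.67 at GV, and rose by 2.55 ± 0.38 (adjusted p = 0.00075), as did Cdc27 by 2.04 ± 0.25. Its activator Cdc20 rose by 2.12 ± 0.30, while its inhibitor Fbxo5 had a change of -0.03 ± 0.39. Fbxo43, known as Emi2, the inhibitor that maintains the metaphase II arrest, had 6.44, 5.50 and 7.70 at MII, against 3.79, 3.99 and 3.98 at GV. It rose by 2.62 ± 0.66 (adjusted p = 0.015), a call that was lost without GV array 1 and without MII array 3. Among 14 spindle checkpoint genes 3 rose and 3 fell (median 0.32), with Bub1b rising by 1.49 ± 0.21 and Zw10 changing by -3.71 ± 0.41. The chromosomal passenger complex with the shugoshins had 2 rises and 1 fall among 7 genes (median 0.96). Of this complex the subunit Cdca8 rose by 1.47 ± 0.21 and its partner Birc5 changed by -3.33 ± 0.32, while the kinase Aurkb had a change of 0.96 ± 0.60 that did not pass the test.

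**Figure D4:**
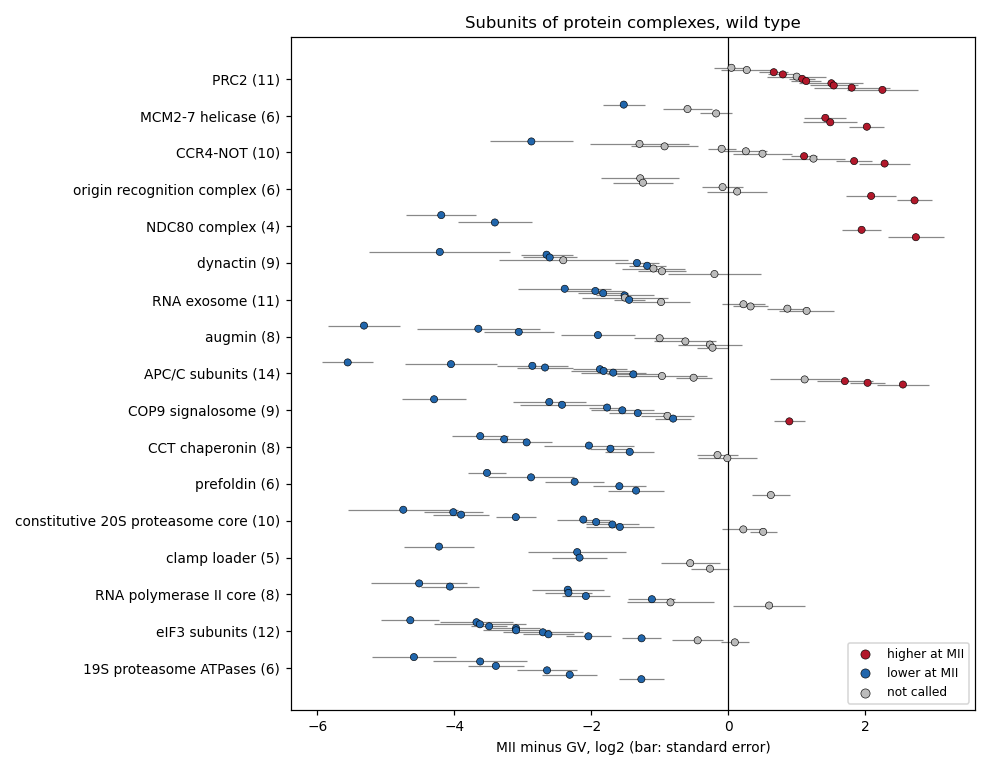
Points are subunits of 17 protein complexes picked after their values were seen (number measured in brackets), placed by their MII minus GV change in wild type (x axis, log2) with a bar of 1 SE; red rose, blue fell and grey did not pass the test. All 6 proteasome ATPases lie left of 0 and fell, PRC2 subunits lie right of 0, and the NDC80 complex and APC/C have subunits on both sides.

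At the kinetochore the 4 subunits of the NDC80 complex, which binds spindle microtubules, were split. Ndc80 had 10.95, 12.85 and 12.23 at MII, against 9.20, 9.61 and 8.99 at GV and Nuf2 had 11.43, 12.07 and 11.75 at MII, against 9.89, 10.003 and 9.51 at GV. These 2, which form the microtubule-binding end, had higher MII than GV arrays throughout and rose by 2.74 ± 0.41 and 1.95 ± 0.29 (adjusted p = 0.00083 and 0.00074). Spc24 had 7.73, 8.71 and 7.23 at MII, against 12.36, 12.11 and 11.77 at GV and Spc25 had 6.61, 7.83 and 6.81 at MII, against 10.84, 10.61 and 10.02 at GV. This pair, which forms the end that faces the centromere, had lower MII arrays throughout and changed by -4.19 ± 0.51 and -3.41 ± 0.53 (adjusted p = 0.00025 and 0.0011). Over the 38 centromere and kinetochore genes 8 rose and 13 fell (median -0.33), the rises numbering 4 without GV array 3.

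Motors and microtubule proteins came next in the division machinery. Among 37 kinesins, motors that mostly walk to microtubule plus ends, 5 rose and 0 fell (median 0.33), with 8 rises when the interquartile range was a covariate. Kif11, which pushes spindle poles apart, had 9.81, 9.69 and 9.86 at MII, against 7.80, 7.83 and 7.15 at GV, and rose by 2.20 ± 0.23 (adjusted p = 0.00011). Kif5b and Kif20a rose by 2.26 ± 0.40 and 1.39 ± 0.30. Of 21 subunits of dynein, the minus-end motor, and its cofactor dynactin 7 fell and 0 rose (median -1.31, and 13 falls with array weights), with Dctn5 and Dctn6 changing by -2.65 ± 0.38 and -2.61 ± 0.40. Tubulins and their folding cofactors had 9 falls and 2 rises among 16 (median -1.78). Tubb5, a beta tubulin, had 7.81, 7.80 and 7.57 at MII, against 10.71, 10.44 and 10.24 at GV, and changed by -2.74 ± 0.41 (adjusted p = 0.00079), and the cofactor Tbcb changed by -5.11 ± 0.52. Augmin, which nucleates microtubules from microtubules, had 4 of 8 subunits lower, with Haus8 at -5.32 ± 0.53. Centrosome and spindle pole genes had 13 rises and 9 falls among 61 (median -0.07, and 5 falls with the covariate), with 8 rises without GV array 3 and 5 falls without GV array 1.

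Cohesin and condensin genes, which hold sister chromatids together and compact chromosomes, had 8 rises and 2 falls among 25 (median 0.69). The cohesin subunit Stag2 had 9.42, 9.66 and 8.95 at MII, against 7.07, 6.60 and 6.12 at GV, without overlap, and rose by 2.74 ± 0.41 (adjusted p = 0.00085). Pds5b, a cohesin regulator, rose by 2.55 ± 0.53. The meiotic cohesin subunits Rec8 and Smc1b, which hold chromosomes together from fetal life on, had changes of 0.69 ± 0.28 and 0.28 ± 0.64 that did not pass the test. Among 23 genes of synapsis and recombination, processes of fetal meiotic prophase, 3 rose and 5 fell (median 0.03), with Msh4 rising by 2.39 ± 0.50.

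DNA replication genes, which the zygote will use, moved both ways. Of 56 genes 14 (25%) rose and 13 (23.2%) fell (median -0.37). The brightest quartile, where 22.1% of all genes rose and 26.7% fell, held 44 of them, and their shares were close to these. Origin and helicase factors included rises. Orc6 of the origin recognition complex had 12.76, 12.11 and 12.61 at MII, against 9.87, 9.64 and 9.81 at GV, and Cdc45, which activates the helicase, had 9.75, 10.51 and 10.41 at MII, against 8.21, 7.36 and 7.46 at GV. Both were higher on every MII array than on any GV array, by 2.72 ± 0.25 and 2.55 ± 0.33 (adjusted p = 6.8e-05 and 0.00036). Within the origin complex 2 of 6 genes rose and 0 fell, and within the MCM helicase 3 of 6 rose and 1 fell. Synthesis factors included falls. Prim1, the primase, Rpa2, which coats single-stranded DNA, Rfc2, a clamp loader subunit, and Fen1, which trims Okazaki fragments, changed by -4.77 ± 0.77, -4.74 ± 0.49, -4.22 ± 0.51 and -3.56 ± 0.29. Of the clamp loader 3 of 5 subunits fell and 0 rose. DNA repair genes were even, with 13 rises and 13 falls among 77 (median 0.07), though 8 rises without GV array 3 or MII array 3. Ddb2, which detects ultraviolet damage, had 11.52, 11.55 and 11.66 at MII, against 9.07, 9.42 and 9.02 at GV, and rose by 2.41 ± 0.22 (adjusted p = 6.8e-05). Bard1, the partner of BRCA1, rose by 3.38 ± 0.67, and the repair polymerase gene Polb changed by -3.65 ± 0.35.

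Genes that store, adenylate and destroy mRNA included rises and falls. Of 46 genes of cytoplasmic polyadenylation and mRNA storage 9 (19.6%) rose and 11 (23.9%) fell (median 0.49, and 14 rises with array weights). Of the 46 genes 30 lay in the brightest quartile, where 22.1% of all genes rose and 26.7% fell, shares close to theirs. The rises ranged from 4 without MII array 1 to 16 after further quantile normalisation. Cpeb1, which recruits the polyadenylation machinery to stored mRNAs and is degraded during maturation, had 9.71, 8.93 and 9.57 at MII, against 11.71, 11.65 and 11.67 at GV. Ybx2, which packages stored mRNA, had 9.91, 10.09 and 11.34 at MII, against 12.10, 11.85 and 12.26 at GV. Each lay lower on every MII array, with changes of -2.28 ± 0.24 and -1.62 ± 0.34 (adjusted p = 0.00012 and 0.0056). Cpsf3, the endonuclease of the cleavage and polyadenylation factor, and Sympk, its scaffold, changed by -3.16 ± 0.64 and -2.39 ± 0.44, as did Igf2bp2, which binds and protects mRNA, by -2.37 ± 0.45. Dazl, a translational activator, had 12.23, 12.07 and 12.28 at MII, against 10.29, 10.31 and 10.57 at GV, all MII arrays being above all GV arrays, and rose by 1.80 ± 0.21 (adjusted p = 0.0002). Larp4, which protects poly(A) tails, and Papolg, a poly(A) polymerase, rose by 2.02 ± 0.31 and 1.68 ± 0.41. Pabpc1l, the oocyte poly(A)-binding protein, and Zar1, a storage factor, had changes of -1.64 ± 0.53 (adjusted p = 0.048) and -0.83 ± 0.22 (adjusted p = 0.019), and both calls were lost in some settings, among them leaving out GV array 1 and leaving out GV array 2.

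Of 65 genes of deadenylation, decapping and decay 17 (26.2%) rose and 8 fell (median 0.26), where 22.1% of the brightest quartile, which held 36 of them, rose. There were 5 falls without GV array 1, GV array 2, MII array 2 or MII array 3. Btg4, the adaptor that brings the deadenylase to maternal mRNA, had 13.83, 13.49 and 13.86 at MII, against 12.40, 12.30 and 12.57 at GV, and Cnot7, a catalytic subunit of CCR4-NOT, had 12.61, 11.72 and 12.50 at MII, against 10.49, 10.53 and 10.29 at GV. The stages did not overlap for either gene, and the rises were 1.30 ± 0.23 and 1.84 ± 0.26 (adjusted p = 0.0019 and 0.0006). Cnot8, the paralogue of Cnot7, and Cnot6l, the other kind of catalytic subunit, rose by 2.28 ± 0.37 and 1.11 ± 0.19, whereas the structural subunit Cnot10 changed by -2.87 ± 0.61. Pan2, the nuclease of a second deadenylase, had 12.85, 12.71 and 13.03 at MII, against 10.33, 10.51 and 9.61 at GV, and rose by 2.71 ± 0.27 (adjusted p = 8.6e-05), and its partner Pan3 rose by 1.197 ± 0.22. Zfp36, which leads mRNAs with AU-rich elements to decay, and Rc3h1, which recognises stem-loops, rose by 3.51 ± 0.79 and 2.30 ± 0.45. The exonuclease gene Xrn2 rose by 3.03 ± 0.32. The RNA exosome, which degrades from the 3′ end, went the other way, with 5 of 11 subunits lower and 0 higher, Exosc1 and Exosc4 changing by -1.94 ± 0.41 and -1.82 ± 0.36. In small RNA pathways 6 of 26 genes fell and 1 rose (median -0.65, and 2 falls with the interquartile range as a covariate), the rise being Ago3 with 2.26 ± 0.47, and Gtsf1, a piRNA cofactor, changed by -2.79 ± 0.33.

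**Figure D5:**
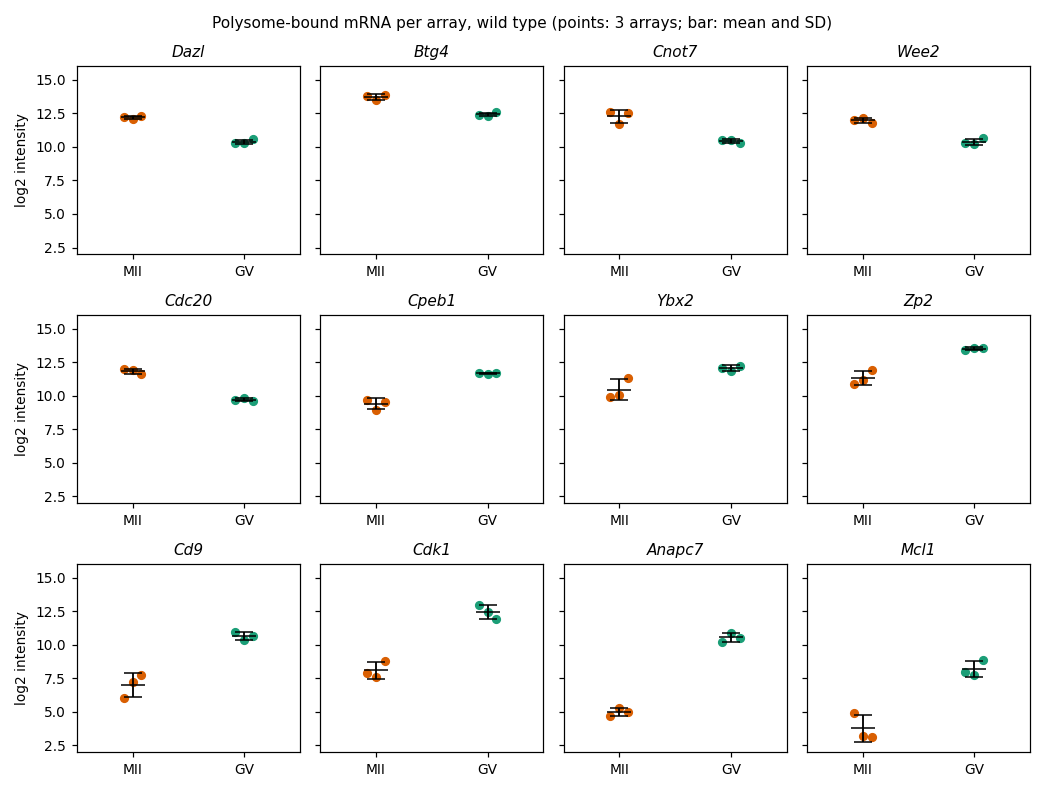
Each panel shows the log2 intensity of a gene (y axis, the same in all panels) on the 3 MII arrays (orange, left) and the 3 GV arrays (green, right), with the mean and SD. Dazl, Btg4, Cnot7, Wee2 and Cdc20 are higher on every MII array, and Cpeb1, Ybx2, Zp2, Cd9, Cdk1, Anapc7 and Mcl1 are lower on every MII array.

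Products of the egg surface had more falls than rises. Among 17 genes for the zona pellucida and factors that oocytes secrete there were 8 falls and 2 rises (median -0.60). Zp2, a zona protein that sperm bind, had 10.86, 11.22 and 11.93 at MII, against 13.40, 13.58 and 13.59 at GV, and changed by -2.19 ± 0.32 (adjusted p = 0.00066), with Zp1 and Zp3 at -2.01 ± 0.21 and -1.79 ± 0.29. Cd9, a membrane protein needed for fusion with sperm, had 6.03, 7.23 and 7.77 at MII, against 10.96, 10.39 and 10.66 at GV. Every MII array lay below every GV array, with a change of -3.66 ± 0.51 (adjusted p = 0.00058). Gja4, the connexin that joins oocyte and cumulus cells, changed by -1.34 ± 0.31. Astl, the protease that cleaves ZP2 after fertilisation, changed by -0.94 ± 0.21 (adjusted p = 0.0083), a call that was lost when a change of at least 1 was required, and the receptor Kit had a change of 0.68 ± 0.35 (adjusted p = 0.2). The growth factors Gdf9 and Bmp15 had changes of -0.35 ± 0.19 and -0.48 ± 0.22 that did not pass the test. Members of the subcortical maternal complex and the oocyte NLRP genes showed 4 falls (25%) and 0 rises among 16 (median 0.02). The brightest quartile held 15 of the 16, and 26.7% of all its genes fell, a share close to theirs. Khdc3 and Padi6 changed by -2.78 ± 0.34 and -2.19 ± 0.38, and Nlrp5, also called Mater, had a change of -0.40 ± 0.30 (adjusted p = 0.38).

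Genes for the control of prophase arrest by cyclic AMP had 4 rises and 2 falls among 20 (median 0.40, and 2 rises with array weights), and 1 rise without GV array 1 or MII array 1. Gnas, the stimulatory G protein, had 10.51, 11.33 and 11.02 at MII, against 12.76, 13.27 and 12.71 at GV, and changed by -1.96 ± 0.28 (adjusted p = 0.00068), and the receptor Gpr3 had a change of -0.46 ± 0.32 that did not pass the test. Pde3a, the phosphodiesterase that lowers cyclic AMP when meiosis resumes, rose by 0.86 ± 0.28 (adjusted p = 0.049), a call that was lost in 9 settings, among them without GV array 1, without GV array 2 and without any 1 MII array. Adcy9, an adenylyl cyclase, rose by 2.03 ± 0.35. Of 26 genes of egg calcium handling and activation 2 rose and 3 fell (median -0.21). The zinc importer Slc39a10 had 12.59, 12.42 and 12.67 at MII, against 10.09, 10.48 and 10.01 at GV, and rose by 2.37 ± 0.26 (adjusted p = 0.00016), as did the plasma membrane calcium pump Atp2b1 by 1.64 ± 0.36. Itpr1, the receptor that releases calcium at fertilisation, had a change of 0.90 ± 0.38 (adjusted p = 0.12).

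Signalling lists held rises and falls. In the PI3K, AKT and mTOR pathway 5 of 32 genes rose and 3 fell (median -0.06). Deptor, an inhibitor of mTOR, had 11.37, 11.41 and 11.65 at MII, against 8.95, 8.96 and 7.41 at GV, and rose by 3.04 ± 0.48 (adjusted p = 0.0012), and Rictor, of mTOR complex 2, rose by 1.38 ± 0.31. Rps6kb2, a kinase downstream of mTOR complex 1, changed by -2.03 ± 0.29. Receptors and SMADs of the TGF-beta and BMP pathways had 6 rises and 1 fall among 29 (median 0.30, and 10 rises with array weights), and 3 rises without GV array 3 or MII array 1, the receptors Acvr2a and Acvr1 rising by 2.004 ± 0.47 and 1.88 ± 0.44. Wnt and Hippo genes had 7 rises and 2 falls among 40 (median 0.45, and 12 rises with array weights), with the scaffold Dvl2 and the coreceptor Lrp6 rising by 2.91 ± 0.42 and 1.64 ± 0.30. Subunits of the phosphatases PP1 and PP2A had 9 falls and 3 rises among 54 (median 0.13, and 6 rises with the covariate), and the falls numbered 3 without GV array 2. The catalytic subunit Ppp1ca changed by -3.08 ± 0.44, while the myosin phosphatase subunit Ppp1r12a rose by 2.32 ± 0.29.

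Transport, cytoskeleton and cell death genes gave single large changes. Of 292 solute carriers 30 rose and 15 fell (median 0.32, and 51 rises with array weights). Slc16a12, which carries creatine, had 8.09, 6.46 and 7.21 at MII, against 4.51, 3.16 and 2.43 at GV, and rose by 3.89 ± 0.79 (adjusted p = 0.0048), and Slc4a7, a bicarbonate transporter, rose by 2.62 ± 0.32. Slc23a3 and Slc7a9 changed by -3.57 ± 0.54 and -3.50 ± 0.69. Olfactory receptors, a family of little known use in oocytes, had 1 fall and 0 rises among the 37 measured of 1106 genes (median 0.27). Actin regulators and myosins had 7 rises and 9 falls among 69 (median -0.08), with 5 falls without GV array 2. Spire1, which builds the actin mesh that moves the spindle, rose by 1.68 ± 0.24, and the formin Diaph3 and the pointed-end capper Tmod3 rose by 2.39 ± 0.50 and 3.05 ± 0.62. Pfn2, a profilin, which binds actin monomers, and Dstn, destrin, which severs filaments, changed by -4.73 ± 0.54 and -3.84 ± 0.47. The array's 3′ minus 5′ control for Actb stood at -1.17 ± 0.18 at MII and 0.36 ± 0.81 at GV (log2, SD, n = 3 each). Among housekeeping genes Actb changed by -2.09 ± 0.39 (adjusted p = 0.0031) and Hprt by 2.06 ± 0.35 (adjusted p = 0.0018). Among 29 genes of the BCL2 family and the caspases 5 rose and 3 fell (median 0.39). Mcl1, which protects cells from death, had 4.95, 3.19 and 3.14 at MII, against 7.98, 7.74 and 8.89 at GV, and changed by -4.44 ± 0.66 (adjusted p = 0.00075), while the death-promoting genes Apaf1 and Bcl2l11 rose by 2.78 ± 0.48 and 2.001 ± 0.35. Bcl2l10, a protective member found in oocytes, rose by 0.71 ± 0.21 (adjusted p = 0.029), a call that was lost in several settings, among them without GV array 1, without GV array 2 and without any 1 MII array.

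Outside the lists, genes ranked 11 to 25 by size and the 15 with the smallest p in each direction named further processes. Ireb2, an iron-sensing RNA-binding protein, had 12.38, 12.31 and 12.41 at MII, against 8.51, 8.68 and 8.90 at GV, and rose by 3.67 ± 0.26 (adjusted p = 3e-05). Atad1, which extracts misplaced proteins from mitochondria, Atl2, which shapes the ER, and Lbr, an anchor of chromatin at the nuclear envelope, rose by 2.56 ± 0.21, 2.62 ± 0.25 and 2.34 ± 0.21. Hmgb2, a chromatin protein that bends DNA, and Prkci, a polarity kinase, rose by 3.61 ± 0.62 and 3.57 ± 0.47. Among falls, Elp3, the catalytic subunit of Elongator, which modifies transfer RNA, had 7.42, 6.96 and 6.80 at MII, against 10.30, 10.46 and 10.23 at GV, and changed by -3.27 ± 0.22 (adjusted p = 3e-05). Chchd1, a protein of the mitochondrial ribosome, and Supt4a, a transcription elongation factor, changed by -4.44 ± 0.32 and -5.31 ± 0.86, and Tmed3, a cargo receptor of the early secretory pathway, by -5.33 ± 0.90. Among the genes in these rankings, Ano6, which rose by 3.61 ± 0.91, lost its call without GV array 3 and without MII array 3, and Tmsb15b2, with a change of -5.44 ± 1.12, lost it with the interquartile range as a covariate.

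Oocytes of Areg -/- mice were set beside the wild type for the same contrast of stages. At the same threshold 13% of all genes rose and 15.2% fell in the Areg -/- oocytes. A change above 0 in Areg -/- oocytes was seen for 1440 of the 1487 wild-type rises, and a change below 0 for 2069 of the 2087 wild-type falls, the genotypes having separate arrays. The difference between the changes, Areg -/- minus wild type, passed an adjusted p of 0.05 in 0 genes by limma and an unadjusted p of 0.05 in 772 genes (4.66%). For complex I 33 of 35 genes fell in Areg -/- oocytes and 31 in wild type. Cytosolic ribosomal proteins had 18 falls in Areg -/- and 16 in wild type, and proteasome genes had 23 in Areg -/- and 25 in wild type. Polycomb genes had 13 rises in Areg -/- and 11 in wild type, and SR proteins and hnRNPs had 7 in Areg -/- and 10 in wild type. Kinesins had 4 falls in Areg -/- and 0 in wild type. For Cdk1 the change was -4.15 in Areg -/- and -4.37 in wild type, a difference of 0.22 (adjusted p = 0.96). For Btg4 it was 1.33 in Areg -/- and 1.30 in wild type, a difference of 0.02 (adjusted p = 0.99). Other named genes, picked after their values were seen, differed more. Gclc changed by -0.61 in Areg -/- and 2.69 in wild type (adjusted p of the difference 0.53). Eif4ebp2 changed by 0.31 in Areg -/- and 2.26 in wild type (0.93), and Eif2ak4 by 0.57 and 1.70 (0.94). Of the wild-type rises, 0 of 1 among antioxidant genes and 1 of 3 among initiation factors were also called in Areg -/- oocytes. A test that passes in no gene does not show that the genotypes acted alike.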

How the data were processed

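Polysome-bound mRNA was amplified and hybridised to Affymetrix mouse genome arrays, per the labels' protocols. The authors deposited log2 intensities made with RMA (background correction, quantile normalisation and probe summary), per the submitters' processing notes, and the probe sets are named by RefSeq transcript. Of 23886 such probe sets 21230 matched 1 gene symbol in the RefSeq table (GRCm38.p6, used for names and start sequences), and 2656 had none and were left out. A gene was represented by its probe set of highest mean, which left 16579 genes. No further normalisation or filter was applied in the comparison reported.

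One linear model held the mean of each of 4 groups of 3 arrays and was fitted with limma (version 3.58.1, under R 4.3.3; lmFit, then eBayes, two-sided). The adjustment of p-values, by Benjamini-Hochberg, ran over the whole table of genes. The script was tested on simulated data. Arrays carry no read depth, and their number limits the precision. Differences between genotypes were tested as an interaction in the same model.

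The members, gene lists and tests were chosen with earlier results of these data known. The rule for naming took up to 4 members a direction with the largest changes per list, among genes called with stages that did not overlap, a set of known oocyte genes whatever their values, the 15 smallest p-values and ranks 11 to 25 by size. From these the text shows mainly genes whose call held in every alternative. Of the fixed oocyte genes Cpeb4, Tuba1b, Gapdh and Eef1a1 had no value under these names. The tried alternatives were the wild-type arrays alone, other moderation of variances, further quantile normalisation, the interquartile range as a covariate, array weights, bright genes alone, the mean of all probe sets, the replicate number as a block, a minimum size of change, and leaving out each array.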

Additional observations from a re-analysis of the deposited data

How the results depend on the processing

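The cell markers Pecam1 and C1qb aside, direction was kept by all 256 called genes named in the text under every alternative tried. Of the 256 genes 243 kept their call in all 15. The total was 2631 to 3334 genes when 1 wild-type array was left out, with 1066 to 1448 rises and 1565 to 1995 falls. With array weights 2268 genes rose, and the cause was not tested. The difference between genotypes was called in 0 to 1 genes when 1 of the 12 arrays was left out, the 1 gene being Sdhaf1 without Areg -/- MII replicate 1 and Cldn34d without Areg -/- MII replicate 3, and in 0 genes under the other alternatives. Between wild-type MII and GV arrays of the same replicate number, deviations from the group means correlated by 0.142, -0.122 and -0.096. For other numbers the correlation was -0.184 to 0.233, so the numbers gave no sign of pairing between these stages. With the number as a block 1588 genes rose and 2161 fell, 3749 in all. Whether arrays of the same number are linked across genotypes was not tested. On GV arrays the Actb control of replicates 1, 2 and 3 stood at 1.16, 0.39 and -0.46 in wild type. In Areg -/- it stood at 0.57, 0.13 and -0.55. Among bright genes alone the median change was -0.15, against 0.20 over all genes, so the median change of a list of bright genes has a lower base. Settings for the length of the encoded protein were not run, since no protein sequences were used here. With 3 arrays a stage, changes in dim genes are the least well measured.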
